A study of Mus musculus with 6 samples.

Results

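The unfolded protein response is the reaction of a cell to misfolded protein in the endoplasmic reticulum (ER), and the genes described here are its sensors and transcription factors as they stand in the gene annotation used for counting in this study. They were taken by name: all rows whose gene name was Ern1, Ern2, Eif2ak3, Atf6, Atf6b, Creb3l2, Xbp1, Atf4, Ddit3 or Cebpb. All 10 names were found, each under a single gene ID, among 38334 gene names in the annotation, of which 22923 had coding rows. The study used mTAL cells, which are mouse cells from the thick ascending limb of the nephron that were made immortal, transduced with a lentiviral vector for GFP-tagged human uromodulin, either wild type (3 libraries) or the C150S isoform (3 libraries), all at passage 3. The cells were mixed transduced populations and not clones, the viral SFFV promoter drove the transgene, and according to the study the line no longer made its own uromodulin. Counts and expression levels are not analysed here, and neither depth nor any difference between the groups is given. The annotation is 1 file of positions on mm10 with no replicates, so the values below carry no error and no test was run.

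In the unfolded protein response, stress sensors in the ER membrane pass a signal to the nucleus. IRE1 (encoded by Ern1, and by Ern2 in epithelia such as that of the gut) is a kinase and nuclease that removes a short stretch from the Xbp1 mRNA, PERK (Eif2ak3) phosphorylates the initiation factor eIF2alpha, which lowers translation in general but raises that of Atf4, and ATF6 and its relatives are membrane-bound factors that are cut in the Golgi to free a transcription factor. ATF4 then acts on genes such as Ddit3, which encodes CHOP, and C/EBPbeta (Cebpb) is a partner of both. Because parts of this response are set by reading frames and not by transcript amounts, start codons, upstream frames and alternative ends of these genes are given in detail.

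The 10 genes had 29 transcripts, 21 with coding rows and 8 without. The transcript with the longest coding sequence stood for each gene. The 5 sensors, Ern1, Ern2, Eif2ak3, Atf6 and Atf6b, had coding sequences of 1971 to 3345 bases, stop codon included, in 16 to 22 exons. The other 5 genes, Creb3l2, Xbp1, Atf4, Ddit3 and Cebpb, had 507 to 1566 coding bases in 1 to 12 exons. The ranges of the sensors and of the other factors did not overlap in coding length or in exon number. This split was set by hand. Atf6 and Atf6b, which also free a transcription factor, were placed with the sensors, and Creb3l2, cut in a like way, with the others. Over all 10 genes the median coding length was about 1768 bases, beside 1113 bases over all 22923 coding genes. The median 5′ untranslated length was 153 bases (121 over all coding genes) and the median 3′ untranslated length 731.5 bases (535 over all), with 5 members above and 5 below the overall median for each.

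**Figure D1:**
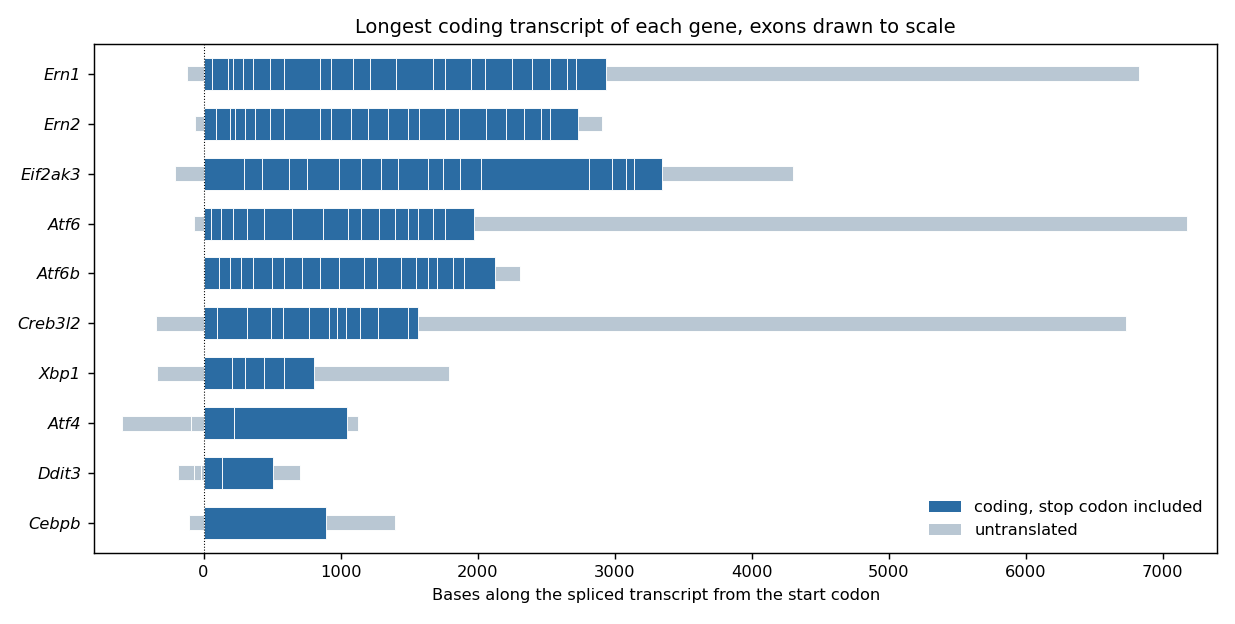
Longest coding transcript of each of the 10 genes, with bases along the spliced transcript from the start codon on the x axis; thick blocks are coding, thin blocks untranslated, and white lines are exon junctions. The sensors have the longer coding parts, Ern1, Atf6 and Creb3l2 carry 3′ untranslated parts of 3892, 5205 and 5170 bases, and Atf4 has the longest 5′ untranslated part, 594 bases.

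The start codon lay in exon 1 in 8 of the 10 genes, against 70.6% of all coding genes. The exceptions were Atf4, with its start codon in exon 2, and Ddit3, with its start codon in exon 3. The stop codon lay in the last exon in 10 of 10, against 95.6% of all coding genes. The bases around the start codons are printed because the base at position -3 (A or G) and the base at +4 (G), counted from the A of the start codon as +1, are known to favour initiation. Each line gives the 10 bases before the start codon, the start codon in capitals and the 7 bases after it, on the strand of the gene, read from GENCODE M21 transcripts and, where an exon ends, the RefSeq promoter table of GRCm38.
Ern1, chr11:106487674-106487676 (minus): acgtcctgccATGccggccc
Ern2, chr7:122186150-122186152 (minus): tgcccagactATGgcgagac
Eif2ak3, chr6:70844726-70844728 (plus): cgggccgctgATGgagcgcg
Atf6, chr1:170867699-170867701 (minus): tgccggcgccATGgagtcgc
Atf6b, chr17:34647214-34647216 (plus): gagccggctcATGgtggggg
Creb3l2, chr6:37441798-37441800 (minus): gcccaccgccATGgaggtgc
Xbp1, chr11:5520995-5520997 (plus): tttcctggctATGgtggtgg
Atf4, chr15:80256299-80256301 (plus): gccccacaacATGaccgaga
Ddit3, chr10:127295341-127295343 (plus): acgtgcagtcATGgcagctg
Cebpb, chr2:167689022-167689024 (plus): ccccgcgttcATGcaccgcc
Of these start codons, 7 had A or G at -3, against 83.6% of 12652 coding genes that could be read there. G at +4 was found in 7, against 49.3%, and both in 5 (Ern2, Atf6, Creb3l2, Xbp1 and Ddit3), against 41.1%. Cebpb had neither.

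Ern1 (ENSMUSG00000020715), the IRE1alpha gene, spanned 93203 bases (chromosome 11, minus strand, 106394650 to 106487852). Its longest coding transcript had 22 exons and 6946 bases, with 120 untranslated bases before the start codon, 2934 coding bases and 3892 untranslated bases after the stop codon. The 3′ untranslated part was longer than in 96.5% of coding genes. The longest intron was intron 1, with 28588 bases. A further 3 coding transcripts shared its start codon and ended early. Each of their last exons began as an exon of the long form and ran on past its end into the following intron, where a stop codon came after 15, 69 or 20 further bases, stop codon included. The first had 11 exons and 1227 coding bases (41.8% of the longest), of which 1212 were in the frame of the long form, and ended in intron 11. The second had 4 exons and 357 coding bases (12.2%) and ended in intron 4. The last had 2 exons and 201 coding bases (6.85%) and ended in intron 2. IRE1 has its sensor part first and its kinase and nuclease parts last, and all 3 short forms kept only the first part of the frame. The remaining transcript had no coding rows, 15 exons, and skipped exons 3 and 5 to 10 while keeping the start codon of the long form in its exon 1.

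Ern2 (ENSMUSG00000030866), the IRE1beta gene, had 1 transcript, of 22 exons and 2973 bases (chromosome 7, minus strand, 122169893 to 122186216). It had 64 untranslated bases, 2736 coding bases and 173 untranslated bases in that order. Its span of 16324 bases was shorter than that of Ern1, and its longest intron had 2125 bases. Ern1 and Ern2 were alike in how the coding sequence was divided. Paired by order, 11 of the 22 coding exons had the same length in both genes, among them exons 3, 4 and 5 (34, 73 and 73 bases) and exons 18 to 21 (148, 128, 124 and 68 bases). The lengths of the other 11 differed by a multiple of 3 in 11 of 11, so the reading frame crossed every one of the 21 junctions at the same codon position in both genes. The exons that differed most were exon 13, with 268 bases in Ern1 and 142 in Ern2, and exon 12, with 192 and 147. Ern2 ended 17 bases from Plk1, a gene of the opposite strand that ends facing it. They had no exon base in common.

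Eif2ak3 (ENSMUSG00000031668), the PERK gene, lay on the plus strand of chromosome 6 from 70844515 to 70905245. Its longest coding transcript had 17 exons, 4513 bases and the longest coding sequence of the 10 genes, 3345 bases, longer than in 92.1% of coding genes. There were 211 untranslated bases before it and 957 after it. A short coding transcript of 3 exons shared the start codon and had 459 coding bases (13.7%), of which 426 were in the frame of the long form and 33 lay in an exon of its own inside intron 2. The other 2 transcripts had no coding rows and were classed as retained_intron in M21. They began in introns 3 and 13 and added 587 bases, 10.8% of all Eif2ak3 exon bases, that belonged to no coding transcript. A small RNA gene, Gm23346 (snoRNA in M21), lay within intron 1 on the same strand and touched no exon.

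Atf6 (ENSMUSG00000026663) had the longest span of the 10 genes, 163098 bases (chromosome 1, minus strand, 170704674 to 170867771), more than in 94.6% of coding genes. Its coding transcript had 16 exons and 7246 bases, divided into 70 untranslated bases, 1971 coding bases and 5205 untranslated bases. That 3′ part was longer than in 98.6% of coding genes, and 5414 bases of the transcript were in its last exon. No shortened coding form was listed. A second transcript without coding rows consisted of 1 exon of 2085 bases that covered exon 12 with parts of introns 11 and 12, and 1985 of its bases, 21.5% of all Atf6 exon bases, were in no coding transcript. Gm25235 and Gm23523, each of 107 bases and classed as snRNA in M21, lay within introns 7 and 14 on the same strand and touched no exon.

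Atf6b (ENSMUSG00000015461), a close relative of Atf6, was compact, with 7929 bases on the plus strand of chromosome 17 from 34647146 to 34655074 and a GC content of 61.2% in its longest coding transcript, higher than in 97.1% of coding genes with a sequence. It had the most transcripts of the 10, 6, of which 5 were coding. The longest coding sequence had 2130 bases in 18 exons, with only 3 untranslated bases before the start codon as annotated. The other full-length forms had 2121 and 2100 coding bases. The first lacked 9 bases (3 codons) at the end of coding exon 1, and the second also began 21 bases later, at another ATG of the same frame. Its first exon held the start codon of the other forms as an upstream ATG in the same frame. In the form of 2121 bases, an ATG 45 bases before the start codon was also in frame, so the open frame reached 721 codons from that ATG, against 706 from the annotated start. Of the 2 short coding forms, one had 219 coding bases (10.3%), with 36 in another frame, and its stop codon lay 124 bases before the last exon junction. The shorter form skipped exon 2, had 108 coding bases (5.07%) and a stop codon 166 bases before the last junction. Both carry the class nonsense_mediated_decay in M21, a label for transcripts whose stop codon lies well before the last junction. They were the only coding transcripts among the 21 with the stop codon outside the last exon.

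Atf6 and Atf6b had 16 and 18 coding exons. Paired from the last exon backwards, 16 pairs were formed, of which 3 had the same length, with 186, 92 and 85 bases. The remaining 13 all differed by a multiple of 3. Paired from the first exon instead, 9 of 16 pairs differed by a multiple of 3 and 0 were equal. Over the pairs from the end, unequal pairs went both ways, and only the largest differences are given. Atf6 was longer by most at its exons 6 and 7 (204 and 221 bases, against 132 and 134 in Atf6b). Atf6b was longer by most at the partners of Atf6 exons 3 and 10 (136 and 180 bases, against 88 and 132).

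**Figure D2:**
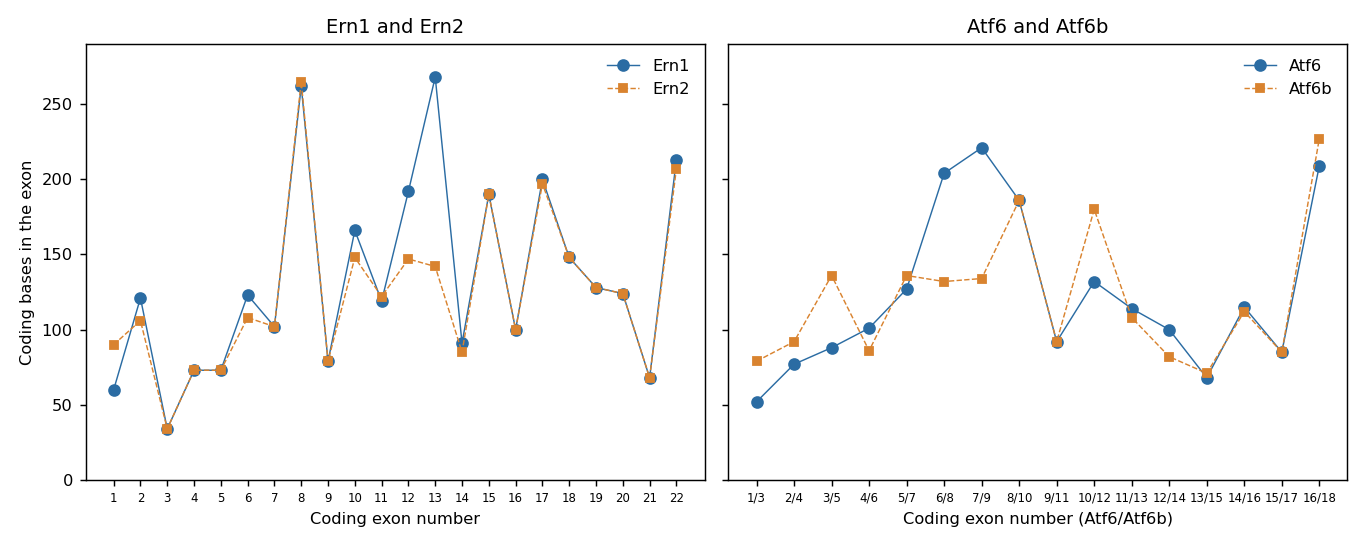
Coding bases in each exon (y axis) of Ern1 and Ern2, paired by exon number, and of Atf6 and Atf6b, paired from the last exon (x axis). Points coincide in 11 of 22 pairs on the left, among them exons 3 to 5 and 18 to 21, and in 3 of 16 pairs on the right.

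Creb3l2 (ENSMUSG00000038648), whose product is anchored in the ER membrane and cut like ATF6, spanned 114892 bases (chromosome 6, minus strand, 37327255 to 37442146). Its coding transcript had 12 exons and 7082 bases, with 346 untranslated, 1566 coding and 5170 untranslated bases. Intron 1, of 61670 bases, was the longest intron of the 10 genes and longer than the longest intron of 94.6% of coding genes. Its other transcript, from intron 8 to intron 11, had 4 exons and no coding rows and added 201 bases.

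Xbp1 (ENSMUSG00000020484) encodes the factor that IRE1 activates, and lay on the plus strand of chromosome 11 from 5520659 to 5525893. The longest coding transcript had 5 exons and 2129 bases, with 336 untranslated bases, 804 coding bases (267 codons before the stop codon) and 989 untranslated bases. This is the frame of the mRNA before IRE1 acts on it. IRE1 is known to cut in small loops with the letters CNGCNGN, after the base at place 3, so the coding sequence was searched for pairs of such loops whose cuts are 26 bases apart. There were 2 such pairs. The pair in exon 4 was taken as the IRE1 site because its removal leaves the longer frame of the 2. Its 26 bases, at chr11:5524279-5524304, are printed here between both cut sites, with the loops in capitals in the next lines and the joined sequence last, in which capitals begin after the junction.
Removed stretch: CAGCACTCAGACTATGTGCACCTCTG
First cut, chr11:5524264-5524293: ggtctgctgagtCCGCAGCactcagactat
Second cut, chr11:5524290-5524319: ctatgtgcacctCTGCAGCaggtgcaggcc
After removal: ggtctgctgagtccgCAGCAGGTGCAGGCC
The stretch began 40 bases into exon 4, an exon of 146 bases, after coding base 478. The 159 whole codons before the first cut stayed as they were. Behind them the frame had 108 codons as annotated and 212 after the removal, which gave 1116 coding bases or 371 codons. The new stop codon lay at 5525240 to 5525242 in exon 5, 338 bases after the annotated one on the unspliced mRNA, in what the annotation lists as 3′ untranslated. With the stretch removed, 651 untranslated bases remained after the stop codon. Frame length was the ground on which this pair was chosen, so the longer frame is no separate support for it. The forward primer that the study lists for spliced mouse Xbp1 matches the sequence after removal, across the junction. The other pair, with the loops CAGCAGG and CCGCAGG in exon 1, left a frame of 73 codons when its 26 bases were removed, the value by which it was set aside.

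**Figure D3:**
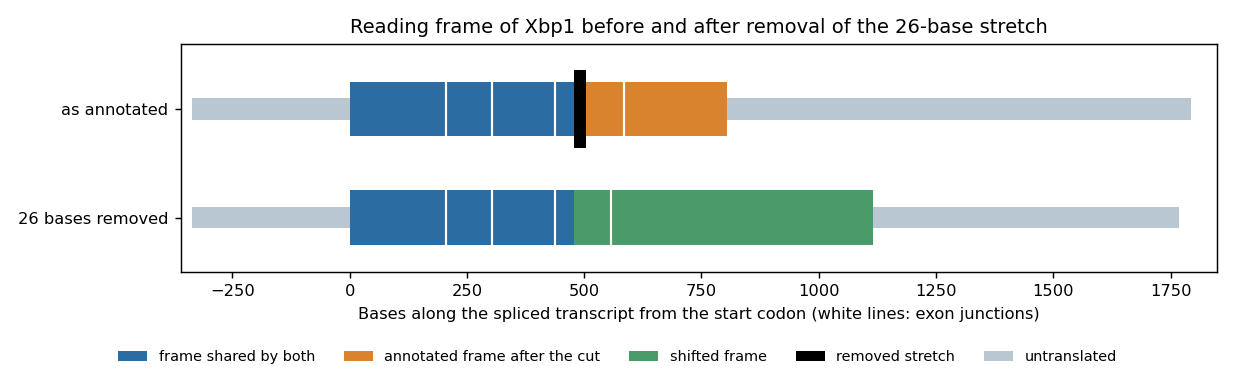
Reading frame of the longest Xbp1 transcript as annotated and with the 26-base stretch removed, in bases along the spliced transcript from the start codon. The frame ends at 804 bases as annotated and at 1116 bases after removal, both in the last exon.

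No Xbp1 transcript of the annotation had the stretch spliced out: 3 of the 4 held it whole, the remaining one ended before it in intron 3, and 0 had an intron of 26 bases. Exon rows therefore give the mRNA before and after IRE1 cutting the same gene name, and a count per gene adds them together. The shorter coding forms were of other kinds. One began inside intron 1 with a start codon there and had 645 coding bases (80.2%), of which 598 were in the frame of the long form and ended at the same stop codon. The other, with 382 coding bases, kept intron 4 and ended 4 bases into it, stop codon included. Its start codon row did not hold a start codon but the letters in capitals at chr11:5521923-5521925: GAAactgaaaaacagagt. M21 tags this transcript as incomplete at its start.

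Atf4 (ENSMUSG00000042406), the factor made when eIF2alpha is phosphorylated, had 1 transcript of 3 exons and 1724 bases on the plus strand of chromosome 15 from 80255184 to 80257540. It had 594 untranslated bases before the start codon, more than 95.2% of coding genes, then 1050 coding bases and 80 untranslated bases. Its 5′ untranslated part held 3 upstream ATGs. Upstream ATGs matter for this gene because its known control works by the choice between upstream frames, and the frames are therefore shown, whole for the short one and by both ends for the longer ones, with start and stop codons in capitals.
Frame 1, chr15:80255297-80255314 to chr15:80255399-80255413: tctctcATGgggccttta to gtggcgctgcggTAG
Frame 2, chr15:80255582-80255593: ATGgcgtatTAG
Frame 3, across the junction of exons 1 and 2, with its end at chr15:80256367-80256381: taagccATGgcgctcttc to gggtttgggggcTGA
Frame 1 had 36 codons before its stop codon and ended 364 bases before the start codon of Atf4. Frame 2, with 3 codons, ended 184 bases before it. Frame 3 had 59 codons, began 97 bases before the start codon and ran 83 bases into the coding sequence in another frame. Frames 2 and 3 had A or G at -3 and G at +4, while the Atf4 start codon itself had A at +4.

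Ddit3 (ENSMUSG00000025408), the CHOP gene, lay on the plus strand of chromosome 10 from 127290774 to 127296288 and had the shortest coding sequence, 507 bases, shorter than in most coding genes (14.9% were shorter still). Its longest coding transcript had 4 exons and 890 bases, with 186 untranslated bases in exons 1 to 3 before the start codon and 197 after the stop codon. It held 2 upstream ATGs, 9 bases apart in the same frame, in exon 1. Both are shown, with the stop codon in exon 2 that they share.
First ATG, chr10:127290823-127290840: tatatcATGttgaagatg
Second ATG, chr10:127290832-127290849: ttgaagATGagcgggtgg
Shared end, chr10:127293739-127293753: caccaccacaccTGA
The frames had 34 and 31 codons and ended 26 bases before the start codon. Another coding transcript skipped exon 2 and with it this stop codon, so that the frames from the same ATGs had 87 and 84 codons and ran 181 bases past the start codon, out of frame with it. That transcript had 481 coding bases, all in the frame of the long form, and its last coding row did not hold a stop codon but the letters in capitals at chr10:127296063-127296065: ggcgggctctgatcgACC. The transcript ends there, and 481 is not a multiple of 3. The transcript without coding rows, of 969 bases, began within exon 1, its other exon began as exon 2 and ran on into intron 2, and 823 of its bases were in no coding transcript. They were 48.0% of the 1713 exon bases of Ddit3, a share larger than in 96.2% of coding genes.

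Cebpb (ENSMUSG00000056501) was the only gene of the 10 whose transcript had 1 exon, against 14.0% of coding genes. It lay on the plus strand of chromosome 2 from 167688915 to 167690418, with 1504 bases divided into 107 untranslated, 891 coding and 506 untranslated bases, and its GC content of 67.2% was higher than in 99.6% of coding genes with a sequence. Its protein is known to be made in long and short forms from start codons within this frame, and the annotation lists only the first start codon. The coding sequence held 5 ATGs in frame, at codons 1, 22, 152, 227 and 245, and 1 out of frame. The first 3 of those in frame and the ATG out of frame are printed with their surroundings.
Codon 1, 296 codons to the stop codon: ccccgcgttcATGcaccgcc
Out of frame, from coding base 30: gggacgcagcATGcctcccg
Codon 22, 275 codons to the stop codon: ctttagacccATGgaagtgg
Codon 152, 145 codons to the stop codon: cgcgcccgccATGgcggccg
The ATG out of frame opened 9 codons that ended at coding base 59, before codon 22, which begins at coding base 64. Of the ATGs in the coding sequence, that of codon 152 alone had both A or G at -3 and G at +4.

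**Figure D4:**
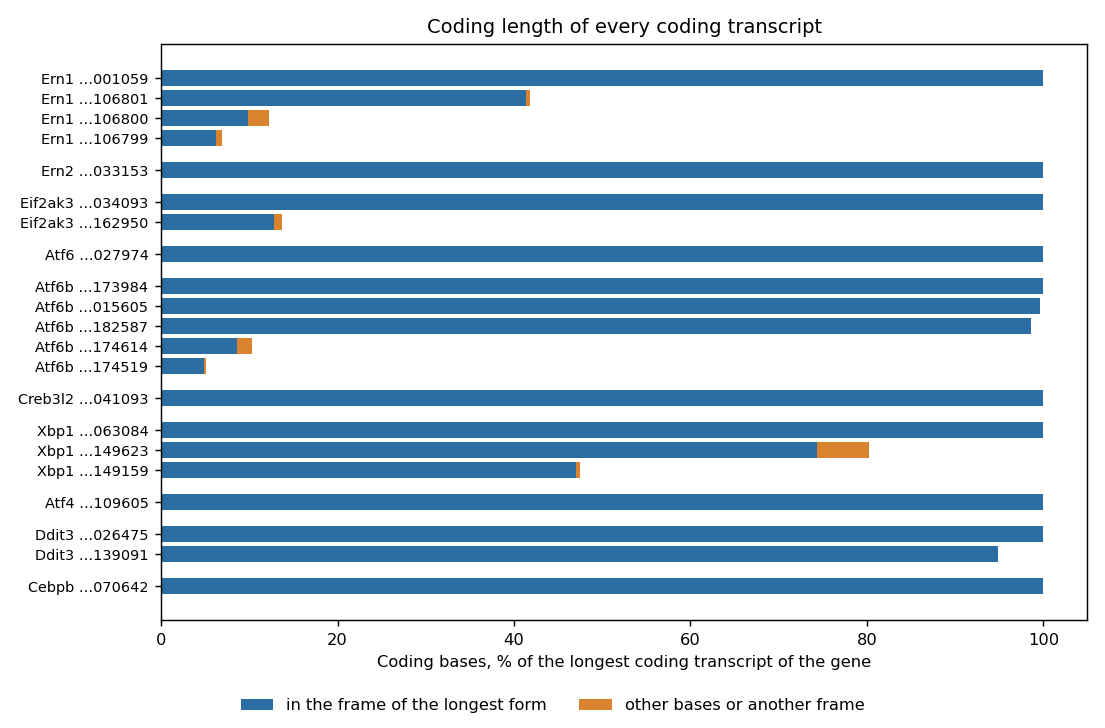
Coding bases of all 21 coding transcripts as a percentage of the longest coding transcript of the gene, with bases in its frame in blue and other bases in orange; labels end in the last 6 digits of the transcript ID. Ern1, Eif2ak3, Atf6b and Xbp1 have forms below 50%, and Ern2, Atf6, Creb3l2, Atf4 and Cebpb have 1 coding transcript each.

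Upstream ATGs were found in the longest coding transcripts of 6 of the 10 genes, against 45.2% of 14385 coding genes whose longest coding transcript could be read in M21 or, for members, from its exons. Transcripts with few or no annotated 5′ untranslated bases count as lacking one, among them that of Atf6b with 3 bases. The 6 were Ern2, Eif2ak3, Creb3l2, Xbp1, Atf4 and Ddit3, with 12 ATGs between them. Frames that ran past the start codon in another frame were found in 3 genes, Ern2, Eif2ak3 and Atf4, against 15.2% of these coding genes. In Ern2 such a frame of 29 codons ran 64 bases into the coding sequence. In Eif2ak3 the longest, of 154 codons, began at base 16 of the transcript and ran 269 bases into it, and another of 8 codons overlapped the start codon by 1 base. Creb3l2 had 2 frames, of 15 and 5 codons, with a common stop codon 234 bases before the start codon, and Xbp1 had 1 of 18 codons that ended 63 bases before it. An upstream ATG in strong context, with A or G at -3 and G at +4, was found in 1 of the 10 genes, Atf4, against 16.2% of the 14385 coding genes. When all coding transcripts were read, Ern1 and Atf6b also had upstream ATGs. In Ern1 it lay in the transcript of 11 exons, had a strong context, and opened 80 codons that ran 95 bases past the start codon.

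**Figure D5:**
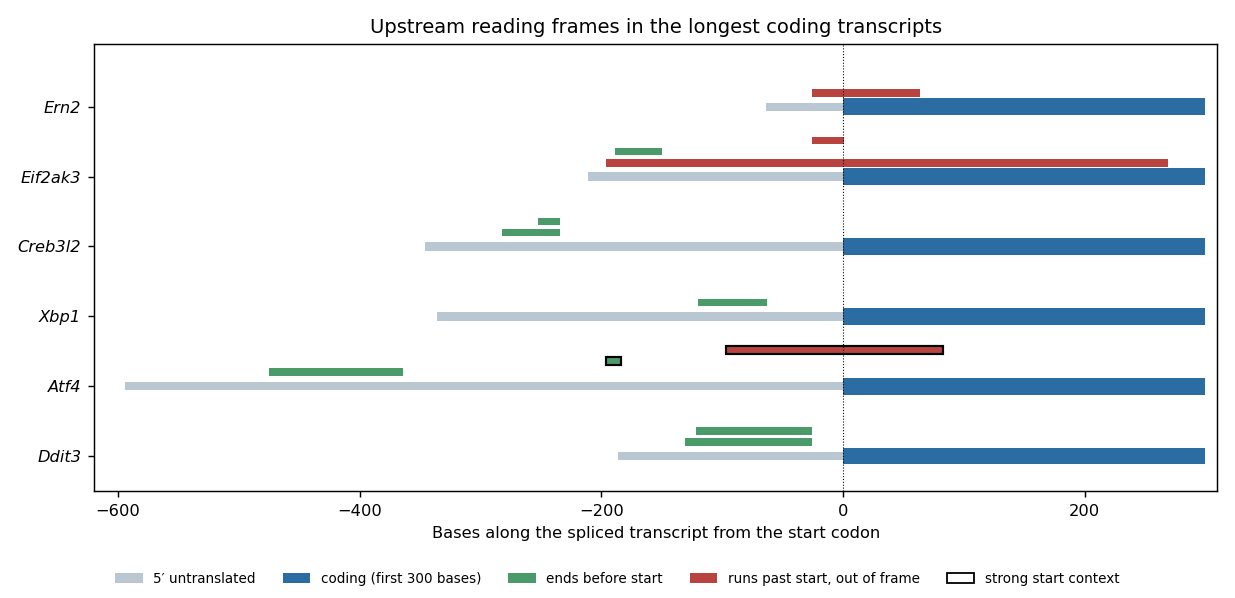
Frames opened by upstream ATGs in the longest coding transcripts of 6 genes, in bases from the start codon (dotted line). Green frames end before the start codon, red frames run past it out of frame, and a black outline marks a strong context, which 2 of the 3 Atf4 frames have.

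Shortened coding transcripts were listed for 5 of the 10 genes, against 40.1% of all coding genes with a coding transcript shorter than the longest. There were 11 in all, 8 with the start codon and 3 with the stop codon of the longest form. The codon rows of this annotation were written also where a transcript is incomplete: over 39700 coding transcripts that could be read, 10.3% had a start codon row that did not read ATG and 16.9% a stop codon row that did not read TAA, TAG or TGA. Among the 21 coding transcripts of the members this was so for 1 start and 1 stop, those of Xbp1 and Ddit3 given above.

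The counts of the study were made per gene name on exon rows, in a mode that sets aside reads lying on exons of more than 1 gene, and the libraries were made with a kit that loses strand information. The strand setting of the counting is not given in the sources used here, so whether reads on exons of opposite strands were set aside is not known, and values are given with strand ignored and for the same strand. Exon bases shared with another gene name were found in 2 of the 10 members, against 20.4% of all coding genes, and in both the other gene was on the opposite strand. In Cebpb, 312 bases (20.7% of its exon bases), from 167689511 to 167689822, were also an exon of Tmem189. They were coding bases 490 to 801 of Cebpb and contain the ATGs of codons 227 and 245. In Tmem189 they belonged to the first exon of 1 of its 4 transcripts, one without coding rows. Of the 1404 windows as long as a sequencing read along the Cebpb transcript, 992 (70.7%) touched no shared base. The study sequenced read pairs, while these windows stand for single reads, so the share for pairs is not given. In Ddit3, the last 68 bases of the 3′ untranslated part were shared with Mars, and bases 3 to 15 of the transcript with Gm4189, which has no coding rows. These left 95.3% of Ddit3 exon bases unshared. The coding bases of Ddit3 were not touched. With only genes of the same strand considered, 0 of 10 members shared a base, against 4.38% of all coding genes.

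The remaining 8 members had 0 shared bases. The nearest genes to their ends were between 17 bases (Ern2 and Plk1) and 27070 bases (Creb3l2 and Dgki) away. No stretch as long as a sequencing read from any of the 10 genes was found in an M21 transcript of a gene at another place, on either strand, in a search of 1404 (Cebpb) to 9128 (Atf6) distinct stretches per gene. The pairs Ern1 with Ern2 and Atf6 with Atf6b were part of that search. Only stretches identical over their whole length were counted, so the search does not cover reads placed with mismatches. No share over all coding genes is given beside it.

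Genes of the same pathways were read in the same way, beside the shares over all coding genes given above (start codon in exon 1 in 70.6%, an upstream ATG in 45.2%, a shared exon base in 20.4% and on the same strand in 4.38%). The lists are short, and no difference from all coding genes was tested. Of the other eIF2alpha kinases Eif2ak1, Eif2ak2 and Eif2ak4, 2 had the start codon in exon 1, and an upstream ATG was found in 1 (Eif2ak2) of the 2 that could be read. Among the CREB3 family and the proteases that cut ATF6 (Creb3, Creb3l1, Creb3l3, Creb3l4, Mbtps1 and Mbtps2), 3 of 6 had the start codon in exon 1 and 4 of the 5 that could be read had an upstream ATG, up to 4 in Creb3l3. Among 8 genes of the ATF4 pathway (Atf3, Atf5, Trib3, Chac1, Asns, Ppp1r15a, Ppp1r15b and Eif2s1), 5 began translation after exon 1, and 5 of the 7 that could be read had upstream ATGs. Ppp1r15a, which encodes the phosphatase subunit GADD34, had 7 of them in 764 bases. The list of 14 targets and partners of IRE1 and ATF6 held Hspa5, Hsp90b1, Dnajb9, Dnajc3, Edem1, Herpud1, Sdf2l1, Syvn1, Manf, Pdia4, Pdia6, Hyou1, Rtcb and Traf2. Of these, 10 began in exon 1 and 1 of the 10 that could be read, Syvn1, had upstream ATGs. The median 5′ untranslated length was 307.5 bases in the ATF4 pathway list, 303 bases in the list of the CREB3 family and proteases, 216 bases in the C/EBP family (Cebpa, Cebpe and Cebpg), 146.5 bases in the list of targets and partners and 103 bases in the eIF2alpha kinases, beside 153 bases in the members. Exon bases under another gene name were found in 2 of the 3 eIF2alpha kinases, 6 of the 14 targets and partners, 3 of the 8 ATF4 pathway genes, 2 of the 6 genes of the CREB3 family and proteases and 0 of the 3 C/EBP genes. On the same strand there were 2 such genes among the targets and partners, 1 among the CREB3 family and proteases and 0 in the other lists. Mbtps2, with 3890 shared bases, had the lowest unshared share of these lists, 61.5%.

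The RefSeq promoter table (GRCm38.p6) held 8 of the 10 members, all but Ern2 and Atf6, as 300 bases each, 250 before and 50 after the start. They were searched on both strands for 5 motifs of this response. These were ERSE (CCAAT, 9 bases, then CCACG), ERSE-II (ATTGG, 1 base, then CCACG), UPRE (TGACGTGG), CARE (TTGCATCA) and CRE (TGACGTCA). UPRE and CRE begin with the same letters TGACGT. None of the 5 was matched in the 8 windows. Over all 32851 promoters of this length the shares with a match were 0.119%, 0.0365%, 0.676%, 0.895% and 1.79% in that order. Matches were this rare and only exact letters within the windows were searched. The lack of a match therefore does not show that these genes lack such elements.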

How the data were processed

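Only the gene annotation deposited by the authors was used. It was the annotation for counting with htseq-count (HTSeq, on exon rows, by gene name, union mode) after base calling with CASAVA 1.8 and alignment with STAR 2.3.0 to mm10, per the labels and methods. Its deposited values are start and end positions on mm10. Coding rows leave out the stop codon, which was added here. The members and gene lists were chosen with earlier results of these data known. Named are the 10 members, every gene that overlaps them and the listed pathway genes; nearest genes and the pathway genes given with values were chosen after their values were seen.

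For each gene the transcript with the longest coding sequence was used, ties by exon bases, then transcript ID. The reference held no genome sequence, so bases were read by position from GENCODE M21 transcripts (GRCm38, the assembly of mm10) and the RefSeq promoter table. The sources disagreed at 0 bases. Of 29 member transcripts, 26 had identical exons in M21, 2 had other ends and 1 (Atf6b) was absent. At the end of Ern2, 9 bases could not be read. Exon bases also lying in exons of a different gene name, on either strand, were called shared. Steps were tested on simulated data. Scripts ran in Python 3.11.15 with matplotlib 3.10.9.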

Additional observations from a re-analysis of the deposited data

How the results depend on the processing

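No paired analysis was possible because no result comes from a test between libraries. With genes of the same strand only, members with an exon base under another gene name went from 2 to 0, and coding genes with such a base from 4669 to 1004. The share of member exon bases not under another gene name was 99.11%, and became 99.15% over windows of read length and 100% with the same strand only. The 99.11% pools Cebpb at 79.26% and Ddit3 at 95.27% with the other members at 100%. No such share over all coding genes is given. Members with an upstream ATG went from 6 to 1, Atf4, when A or G at -3 and G at +4 were required, which lowered the share over all coding genes from 45.2% to 16.2%. No coding transcript of the 10 genes (0) lacked a codon row, so that rule for shortened transcripts found none of the 11 given; under 90% of the longest there were 8, and 9 when the codon rows had to read as codons, a rule chosen after seeing the data. With the coding transcript of most exon bases in place of the longest coding sequence, the counts of start and stop codons by exon and the 3 median lengths were the same. All values describe 1 annotation, and no expression was measured here.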

Other observations

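Cebpd, a relative of Cebpb from the list of its family, had exon rows but no coding rows in the annotation. Its 1 transcript was written as 2 exon rows with 1180 bases in all and a gap of 1 base between them. It was therefore left out of the coding values, and the other 3 genes of the list, Cebpa, Cebpe and Cebpg, had the start codon in exon 1, 1 and 2.

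Of the 4074 coding transcripts whose start codon row did not read ATG, 3373 (82.8%) carried a tag for an incomplete start or end in M21, and of the 6690 whose stop codon row did not read as a stop codon, 6054 (90.5%) did. The list gene Rtcb, the ligase that rejoins Xbp1 after IRE1 cutting, is written D10Wsu52e in the annotation and was found by its gene ID.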
